A study of Mus musculus with 8 samples.

Results

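Potassium channel genes were followed in sorted mouse brain cells across development and after chronic neonatal hypoxia. The genes were all those whose symbol is Kcn followed by subfamily letters and a number, which gave 92 of the 53507 gene rows, in 20 subfamilies. RNA sequencing counts were available for 8 libraries of brain cells positive for tdTomato, a red fluorescent protein used for sorting, and labelled as progenitors. The 4 groups of 2 libraries were taken on embryonic days 13 (E13) and 15 (E15), on postnatal day 12 (P12) after hypoxia, and at P12 in normal air. Hypoxic pups were kept at 10% oxygen for 8 days, from P3 to P11, while the normoxic pups stayed in normal air, and the hypoxic and control mothers were swapped as foster mothers. The embryonic groups are labelled wild type. Neither the driver of the reporter nor the strain is given in the labels used here, and the labels do not state that replicates are separate animals, so p-values measure only the spread between these libraries, which may be technical. The RNA input was 400 pg for every library.

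Potassium channels let potassium ions leave or enter the cell and set the resting membrane potential and the shape of electrical signals. Voltage-gated subunits open on depolarisation, calcium- and sodium-activated subunits respond to ions inside the cell, inward rectifiers pass potassium best near rest, and two-pore-domain (K2P) subunits carry leak currents. Auxiliary subunits have no pore and change the traffic or gating of a pore-forming partner. In the brain, glia are known for inward rectifier and leak channels that hold a negative resting potential and take up potassium, and neurons for a wide choice of voltage-gated and calcium-activated channels.

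The 8 libraries held 36252027 to 47084796 counts in gene rows. Levels are given as CPM, counts per mega-count of library size after TMM scaling, and a count of 0 allows up to 3 counts, or 0.0482 to 0.111 CPM, counting error only. Replicates were close in the embryo and far apart at P12: the correlation of log2(CPM + 1) across all tested genes was 0.984 at E13, 0.988 at E15, 0.705 in P12 hypoxia and 0.817 in P12 normoxia, and across the potassium channel genes it was 0.949, 0.967, 0.683 and 0.642 in the same order, genes not being independent replicates. The summed level of 8 astrocyte markers was 12000 to 14800 CPM in hypoxic P12 and 11700 to 11800 CPM in normoxic P12 libraries, against 36.9 to 64.3 CPM in the embryonic libraries. The sum of 10 neuronal markers was 271 and 700 CPM in hypoxic P12 and 596 and 672 CPM in normoxic P12 libraries, against 2620 to 3080 CPM in the embryonic ones, and nearly all of the hypoxic sum came from Map2, Tubb3 and Dcx. Progenitor markers (9 genes) summed to 1320 to 1860 CPM at P12 and 360 to 665 CPM in the embryo, and oligodendrocyte lineage markers (8 genes) to 1690 and 3270 CPM in hypoxia, 560 and 686 CPM in normoxia and 12.5 to 38.0 CPM in the embryo. Endothelial and mural markers (8 genes) summed to 1280 and 1020 CPM in hypoxia, 2520 and 1980 CPM in normoxia and 5.97 to 14.7 CPM in the embryo, with Pecam1, Cldn5, Cdh5 and Vtn at 0 in every P12 library. Haemoglobin genes of red blood cells (4 genes) summed to at most 0.037 CPM at P12, against 19.8 and 84.9 CPM at E15 and 2220 and 7220 CPM at E13. Every comparison of P12 with the embryo, and of E15 with E13, below therefore also compares libraries with these different marker levels, and the part of the marker levels in the channel results was not tested. In bulk libraries, fewer cells of a type and less RNA per cell cannot be told apart.

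Of the 92 genes, 14 had no count in any library (Kcna7, Kcne1, Kcne3, Kcng3, Kcng4, Kcnj1, Kcnj15, Kcnk4, Kcnk15, Kcnk16, Kcnk18, Kcnmb1, Kcnq1 and Kcnv2), and 59 passed the low-count filter for testing. At least 1 CPM in both libraries was reached by 34 genes at E13, 36 at E15, 7 in P12 hypoxia and 22 in P12 normoxia. In single libraries it was reached by 15 and 11 genes in hypoxia and 25 and 42 in normoxia, against 37 to 40 in the embryo. Over all gene rows, 11611 and 10184 reached 1 CPM in the hypoxic libraries. In normoxia 12523 and 15001 rows did, against 13877 to 14285 in the embryo. The normoxic libraries thus lay on either side of the embryonic ones for these genes and for all gene rows alike. The 7 of hypoxic P12 were Kcnc1, Kcnip3, Kcnj10, Kcnk1, Kcnk2, Kcnk10 and Kcnn2, and all but Kcnj10 and Kcnk1 reached this level in every group. No group had both libraries at 1 CPM or more for 45 genes. A gene could pass the filter through the group where it was high, so counts over the 59 describe these libraries and not the whole family.

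**Figure D1:**
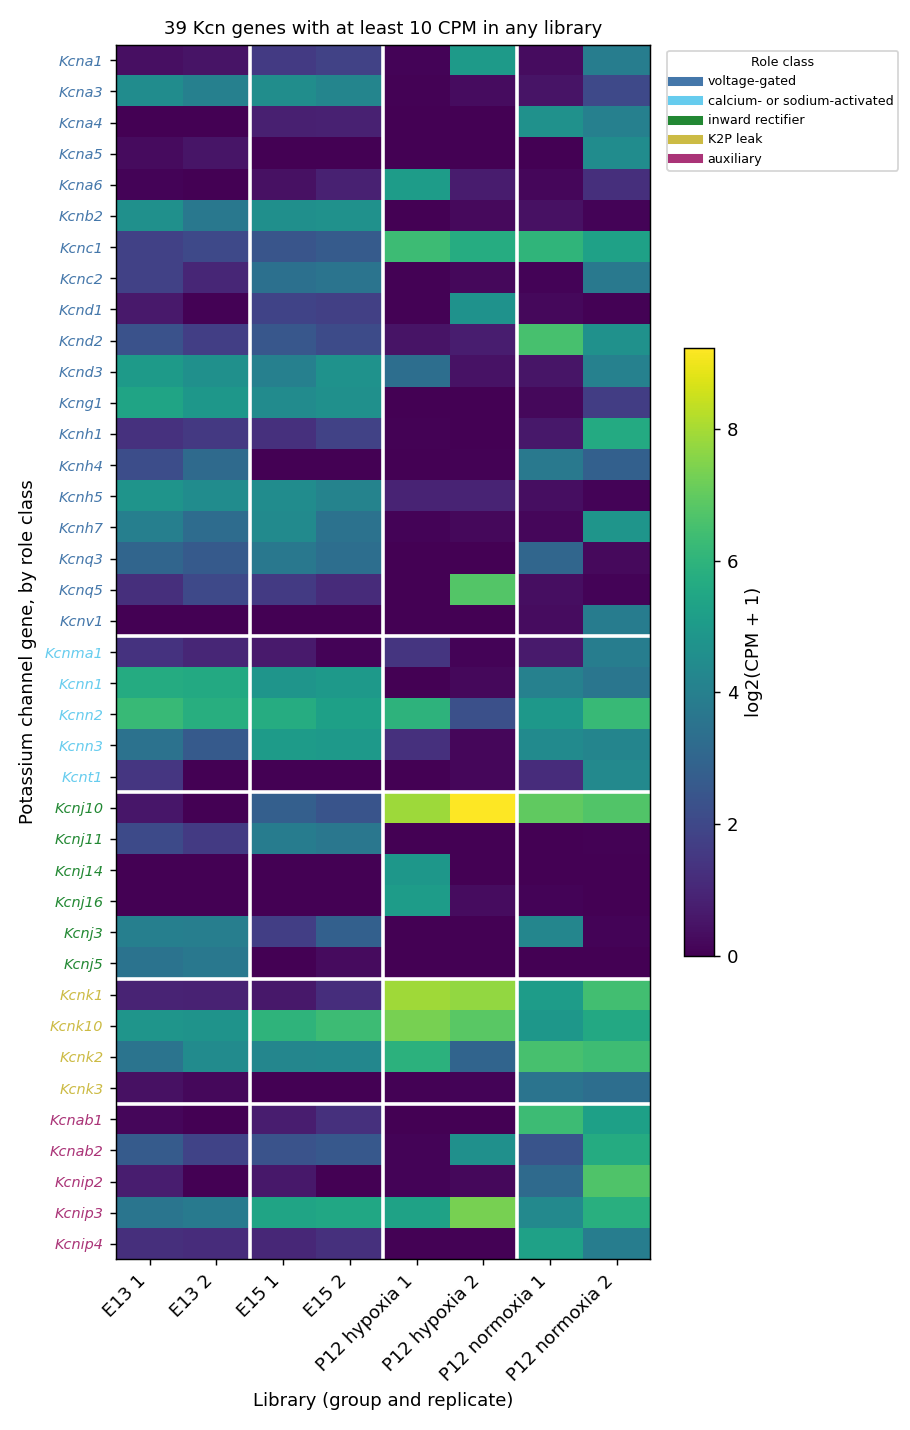
Heat map of log2(CPM + 1) for 39 potassium channel genes with at least 10 CPM in any library, in the 8 libraries, ordered by role class and with gene names coloured by class. The embryonic columns are filled for many voltage-gated genes, while the hypoxic P12 columns are filled mainly for Kcnc1, Kcnip3, Kcnj10, Kcnk1 and Kcnk10, which had at least 10 CPM in both hypoxic libraries.

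Weighted per kilobase of exon, so that genes of unequal length can be compared, the make-up of the family differed between P12 and the embryo. K2P leak subunits held 56.2% and 36.4% of the summed CPM per kilobase of all 92 genes in the hypoxic libraries and 27.5% and 28.2% in the normoxic, against 7.39% and 10.7% at E13 and 12.9% and 14.8% at E15. Inward rectifiers held 25.4% and 36.7% in hypoxia and 18.7% and 11% in normoxia, against 5.98% to 8.35% in the embryo. Voltage-gated subunits held 10.4% in each hypoxic library and 26.9% and 22.0% in normoxia, against 42.0% to 50.6% in the embryo. Calcium- and sodium-activated subunits, with which the related Kcnu1 was classed, held 3.45% and 0.193% in hypoxia and 6.65% and 8.58% in normoxia, against 17.1% to 24.7% in the embryo. The shares of these 4 classes did not overlap between either P12 group and the embryo, but the levels behind them did in part. The voltage-gated sum was 25.6 and 31.5 CPM per kilobase in hypoxia and 38.7 and 48.7 in normoxia, against 35.8 to 46.1 in the embryo, and the calcium- and sodium-activated sum was 8.47 and 0.583 in hypoxia and 9.58 and 19.0 in normoxia, against 15.9 to 22.5 in the embryo. The normoxic sums of both classes thus overlapped the embryonic ones after TMM scaling, and the hypoxic sums lay below. The TMM factors were 1.322 to 1.383 in embryonic and 0.639 to 0.848 in P12 libraries. Scaled by library size alone, without these factors, the normoxic sums of both classes also lay below the embryonic ones. The shares of auxiliary subunits overlapped, with 4.56% and 16.4% in hypoxia and 20.3% and 30.2% in normoxia, against 10.3% to 20.1% in the embryo. Just 3 genes, Kcnj10, Kcnk1 and Kcnk10, made up 69.0% and 72.5% of the summed level in hypoxia and 28.7% and 28.3% in normoxia, against 3.9% to 11.3% in the embryo. The total itself was 246 and 303 CPM per kilobase in hypoxia and 144 and 222 in normoxia, against 77.3 to 93.0 in the embryo. It too depends on the TMM factors. As a share of all gene-row counts, without these factors or exon length, the 92 genes held 0.0814% and 0.0858% in hypoxia. They held 0.053% and 0.0906% in normoxia and 0.0594% to 0.0745% in the embryo, so normoxia lay on either side of the embryo. No test was run on these shares or totals.

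**Figure D2:**
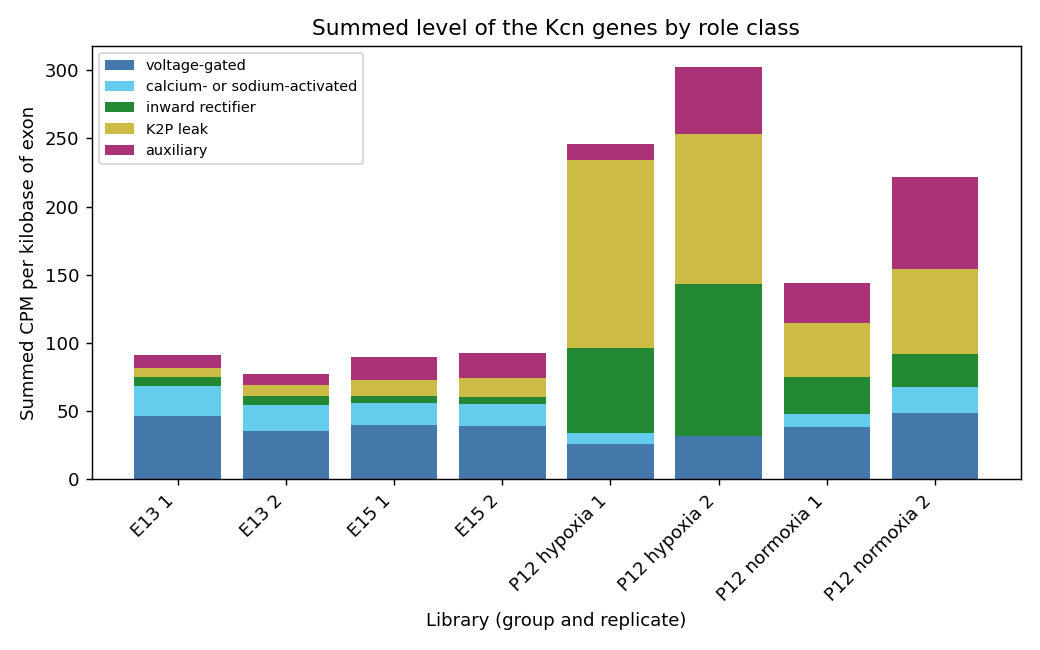
Stacked bars of the summed CPM per kilobase of exon of the potassium channel genes in each of the 8 libraries, split into 5 role classes. The bars of the hypoxic P12 libraries are the tallest, at 246 and 303, and consist mostly of K2P leak subunits and inward rectifiers, whereas the embryonic bars, at 77.3 to 93.0, are mostly voltage-gated and calcium- or sodium-activated subunits.

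The order of levels within each group, also per kilobase, was led by different genes. At E13 the small-conductance calcium-activated gene Kcnn1 (mean 10.7 CPM per kilobase), the Shaker-type gene Kcna3 (9.57), Kcnn2 (8.55) and the silent subunit gene Kcng1 (7.71) came first, and the libraries of each overlapped those of the next. At E15 the auxiliary gene Kcnip3 (12), Kcna3 (10.4) and the K2P gene Kcnk10 (8.19) led. Kcnip3 and Kcna3 were not separated, both being at 11.6 in E15 replicate 1. For Kcna3 and for Kcnk10 both libraries lay above both of the following gene. In hypoxic P12 cells Kcnk1 (102) and Kcnj10 (77) led, followed by Kcnip3 (28.1) and Kcnk10 (15.8), and in normoxic P12 cells Kcnk1 (26.6), Kcnj10 (21.2) and Kcnk2 (17.7) did. Kcnk1 and Kcnj10 were not separated in either P12 group, since Kcnj10 was ahead in 1 of the 2 libraries of each.

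Chronic hypoxia was compared with normal air at P12. Of the 59 genes tested, 3 were lower after hypoxia and none was higher, that is Kcna4 and Kcnd2, which encode pore subunits of rapidly inactivating (A-type) voltage-gated channels, and Kcnip4, a calcium-binding auxiliary subunit of the Kcnd channels. Kcna4 had 0 CPM in both hypoxic libraries, against 24.6 and 15.4 CPM in normoxia. Kcnd2 had 0.404 and 0.666 CPM in hypoxia, against 91.4 and 24.2 CPM in normoxia. Kcnip4 had 0.0336 and 0.037 CPM in hypoxia, against 37.8 and 14.2 CPM in normoxia. For all 3 the libraries of the groups did not overlap. Kcna4 was at least 190-fold lower in hypoxia, taking 3 counts per library for its absence (edgeR quasi-likelihood test, Benjamini-Hochberg adjusted p = 0.0461). Kcnd2 fell by 6.75 on the log2 scale (SE 1.11, n = 2 libraries per group, edgeR quasi-likelihood adjusted p = 0.0401). Kcnip4 was 742-fold lower from 2 counts in all (95% counting interval 205 to 6130, edgeR quasi-likelihood adjusted p = 0.0234). Of all 19936 tested genes 3.02% were called, 2.82% lower and 0.196% higher. At an unadjusted p under 0.05 there were 28 genes, 3 of them higher (Kcnh5, Kcnk1 and Kcnk10).

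These 3 calls changed with the libraries and the tool used. With any 1 of the 4 embryonic libraries left out, edgeR called no potassium channel gene (24 at an unadjusted p under 0.05) and no gene of all those tested, and the edgeR quasi-likelihood adjusted p lay between 0.16 and 0.226 for Kcna4, 0.174 and 0.177 for Kcnd2 and 0.151 and 0.155 for Kcnip4. edgeR on the 4 P12 libraries alone called none either (adjusted p = 0.341 for each of the 3, with 17 genes at an unadjusted p under 0.05), nor did limma-voom on all libraries (12 genes), and each called 0.0% of all tested genes. DESeq2 on the same 4 P12 libraries, chosen after seeing the data, called 2 genes higher and 21 lower, Kcna4, Kcnd2 and Kcnip4 among them, and 9.34% of all tested genes. DESeq2 on all 8 libraries called 6 higher and 24 lower, again with these 3, and 20.0% of all tested genes. Without hypoxia replicate 1 the counts were 2 higher and 9 lower, without hypoxia replicate 2 they were 2 and 5, without normoxia replicate 1 they were 0 and 7, and without normoxia replicate 2 they were 0 and 4, when 13.5%, 7.75%, 4.14% and 4.49% of all tested genes were called. Kcna4 was lost without normoxia replicate 1 (edgeR adjusted p = 0.0713) and without normoxia replicate 2 (0.0634), and Kcnd2 without hypoxia replicate 2 (0.0578) and without normoxia replicate 1 (0.0501). The hypoxic libraries lay below the normoxic without overlap for 26 of the 59 genes and above for 4, against 20.1% and 13.1% of all tested genes. The median fitted log2 fold change of the 59 was -3.76, or -3.46 with genes absent on 1 side put at their bound, and that of all tested genes was 0.00. The median of the potassium channel genes was -1.80 without normoxia replicate 1 and -0.54 without normoxia replicate 2. Those fits tested 71 and 66 of them, since the filter was run anew, so the medians are not over the same 59. Of the 10 neuronal markers, Snap25 and Stmn2 were called lower after hypoxia and none higher, and the median log2 fold change of the 10 was -3.41. Snap25, a synaptic vesicle fusion gene, had 0.605 and 0.333 CPM in hypoxia, against 85.8 and 87.6 CPM in normoxia, and Stmn2, a gene of growing axons, had 0.101 and 0.074 CPM in hypoxia, against 29.3 and 40.5 CPM in normoxia. Syt1, Gad1, Gad2 and Rbfox3 also lay below normoxia without overlap and were not called, Map2 lay above and was not called, Tubb3 and Dcx overlapped, and Slc17a7 was at 0 in every P12 library. The calls of Snap25 and Stmn2 were lost without any 1 embryonic library (edgeR adjusted p of 0.151 to 0.155), with the replicate block, in limma-voom and in the edgeR fit of the P12 libraries alone, and both DESeq2 fits kept them. The part of the neuronal markers in the channel values was not tested.

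Normal postnatal development was compared as normoxic P12 against the 2 embryonic stages, averaged with equal weight. Higher at P12 were 9 of the 59 genes, namely Kcna4, Kcnab1, Kcnc1, Kcnd2, Kcnh4, Kcnip4, Kcnj10, Kcnk1 and Kcnk3, and 6 were lower, namely Kcnh5, Kcnh8, Kcnip1, Kcnj6, Kcnj11 and Kcnu1. Of all tested genes 17.8% were called, 12.1% higher and 5.68% lower. The normoxic libraries lay above all 4 embryonic ones for 13 genes and below them for 17, against 27.3% and 32.1% of all tested genes. The median log2 fold change was 0.03, and that of all tested genes was -0.04. Without normoxia replicate 2 they were -2.08 and -0.72, over the genes which that fit tested, 66 of them potassium channel genes. Without 1 embryonic library 1 or 2 of the genes were called higher and none lower, with 4.2% to 4.42% of all tested genes called. The numbers called also changed when a P12 library was left out. Without normoxia replicate 1 the medians of the potassium channel genes and of all tested genes were 0 and -0.34. They were -0.14 and -0.19 without hypoxia replicate 1, and -0.11 and -0.11 without hypoxia replicate 2.

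Hypoxic P12 cells were set against the same embryonic libraries. Higher were 4 genes, Kcnc1, Kcnj10, Kcnk1 and Kcnk10, and lower were 19, of which 10 encode voltage-gated subunits (among them Kcna3, Kcnb2, Kcnf1, Kcng1, Kcnh2, Kcnh5, Kcnh6, Kcnh8 and Kcnq3). The other 9 lower genes were Kcnip1, Kcnip4, Kcnj6, Kcnj9, Kcnj11, Kcnk12, Kcnmb4, Kcnn1 and Kcnu1. Of all tested genes 26.1% were called, 13.2% higher and 12.9% lower. The hypoxic libraries lay above all 4 embryonic ones for 4 genes and below them for 30, against 21.3% and 36.3% of all tested genes. The median fitted log2 fold change was -5.06, or -2.54 with 18 absent genes put at their bound, and that of all tested genes was -0.43. The median was -3.12 without E13 replicate 2, over the 68 potassium channel genes which that fit tested. Without 1 embryonic library 3 genes were called higher and none lower, with 7.03% to 7.3% of all tested genes called. The numbers called also changed when a P12 library was left out. The medians of the potassium channel genes and of all tested genes were -4.58 and -1.68 without hypoxia replicate 1. They were -4.57 and -0.995 without hypoxia replicate 2. Without normoxia replicate 1 they were -3.85 and -0.46, and without normoxia replicate 2 they were -4.445 and -0.56. The hypoxic and the normoxic comparison share their embryonic libraries, so their calls are given side by side and their overlap is not a result.

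Between the embryonic stages, E15 against E13, edgeR called none of the 59 genes at an adjusted p under 0.05, and 0.0% of all tested genes, with 7 of the 59 at an unadjusted p under 0.05. DESeq2 called 4 genes higher and 3 lower (1.87% of all tested genes), limma-voom 5 and 5 (4.69%), and the edgeR fit of the 4 embryonic libraries alone 2 and 0 (1.25%). DESeq2 on those 4 libraries called 8 and 5 (11.3%). The E15 libraries lay above both E13 libraries for 16 genes and below for 13, against 23.6% and 25.8% of all tested genes. The median log2 fold change was 0.10, and 0 genes were called when any 1 library was left out.

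**Figure D3:**
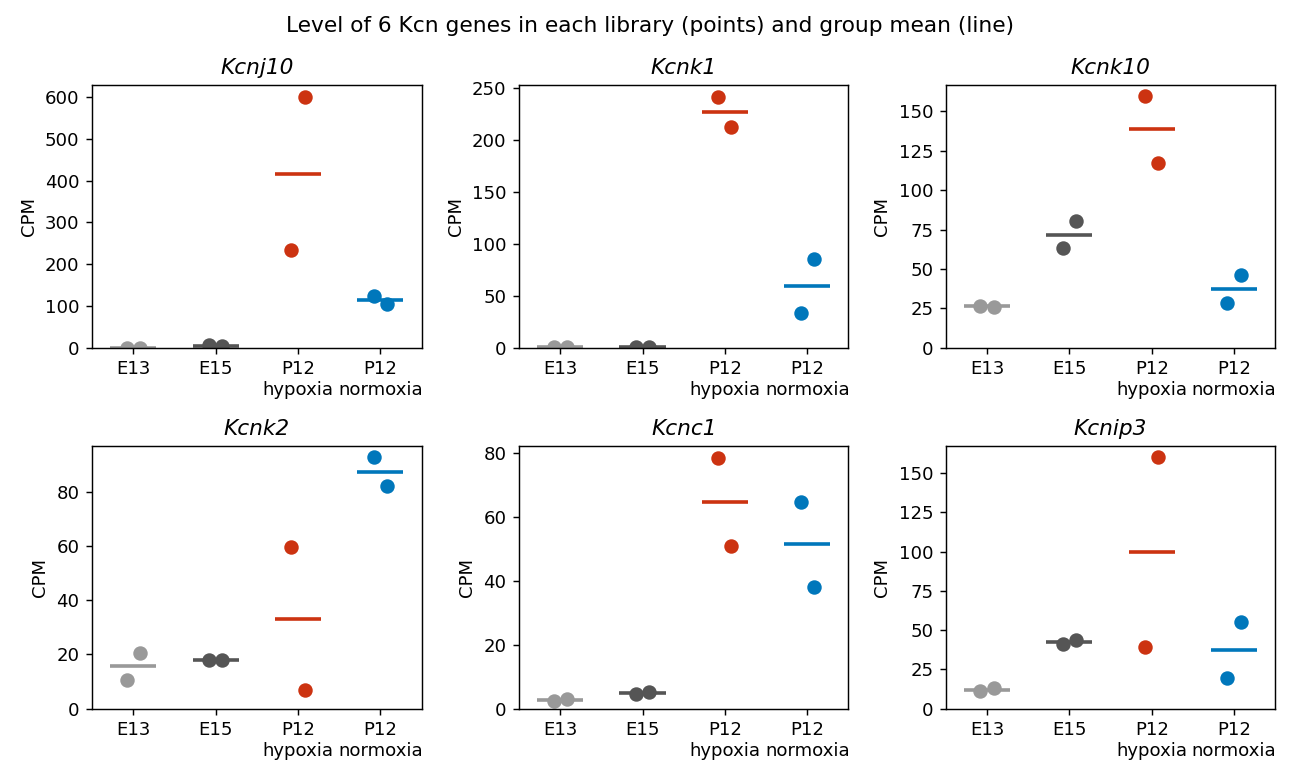
CPM of Kcnj10, Kcnk1, Kcnk10, Kcnk2, Kcnc1 and Kcnip3 in each library (points) with the group mean (line), for E13, E15, P12 hypoxia and P12 normoxia, 2 libraries each and a linear axis from 0. Kcnj10, Kcnk1 and Kcnc1 are far higher in both P12 groups than in the embryo, Kcnk10 is highest in hypoxia, and the 2 hypoxic libraries of Kcnk2 and Kcnip3 lie far apart.

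The inward rectifier Kcnj10 encodes Kir4.1, the main potassium-buffering channel of astrocytes. It stood at 234 and 599 CPM in hypoxic P12 and 125 and 104 CPM in normoxic P12 libraries, against 0.465 and 0.0178 CPM at E13 and 5.85 and 4.23 CPM at E15. All P12 libraries were above all embryonic ones, and both hypoxic libraries above both normoxic ones. Kcnj10 rose by 8.55 on the log2 scale in hypoxic P12 against the embryo (SE 1.08, edgeR quasi-likelihood adjusted p = 0.00423) and by 6.70 in normoxic P12 (SE 1.01, edgeR quasi-likelihood adjusted p = 0.00994). In normoxia the call was lost without E15 replicate 1 (edgeR adjusted p = 0.0793), without E15 replicate 2 (0.0834) and without normoxia replicate 1 (0.0506). In E15 against E13 the log2 fold change was 4.37 (SE 1.25, edgeR adjusted p = 1.0), a difference that DESeq2 called (adjusted p = 0.0274).

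The sequence just upstream of the RefSeq start is printed for Kcnj10, the K2P gene Kcnk1 and the voltage-gated gene Kcnc1, because these genes were called higher in both P12 groups. Each run is 250 bases of build GRCm38.p6 on the strand of the gene, from RefSeq, and ends 1 base before the start. Capitals mark TTGGC or its reverse complement GCCAA, the half-site read by nuclear factor I proteins, which act in glial differentiation, and ACGTG or its reverse complement CACGT, the core read by hypoxia-inducible factors. The windows are chr1:172340960-172341209 on the plus strand for Kcnj10, chr8:125994852-125995101 on the plus strand for Kcnk1 and chr7:46396218-46396467 on the plus strand for Kcnc1.
Kcnj10: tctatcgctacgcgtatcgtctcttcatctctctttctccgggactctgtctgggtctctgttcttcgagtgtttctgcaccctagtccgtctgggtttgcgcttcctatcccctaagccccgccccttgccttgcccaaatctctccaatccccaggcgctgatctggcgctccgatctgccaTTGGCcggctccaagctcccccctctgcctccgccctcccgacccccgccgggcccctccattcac
Kcnk1: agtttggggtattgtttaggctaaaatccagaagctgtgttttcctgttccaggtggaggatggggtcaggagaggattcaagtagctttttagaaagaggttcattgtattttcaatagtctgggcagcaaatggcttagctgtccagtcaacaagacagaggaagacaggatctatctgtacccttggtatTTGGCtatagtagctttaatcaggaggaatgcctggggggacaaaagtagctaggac
Kcnc1: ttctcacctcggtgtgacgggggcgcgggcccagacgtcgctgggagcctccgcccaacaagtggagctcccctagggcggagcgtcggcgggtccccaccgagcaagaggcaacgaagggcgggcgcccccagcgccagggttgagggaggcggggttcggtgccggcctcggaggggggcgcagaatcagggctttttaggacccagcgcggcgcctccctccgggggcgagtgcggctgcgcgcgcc
The windows of Kcnj10 and Kcnk1 hold 1 nuclear factor I half-site each, the window of Kcnc1 holds none, and the hypoxia-inducible core is in none of the 3. Among 32817 windows of the same length the half-site was found in 41.5% and the core in 16.6%, and among the 92 windows of the 67 potassium channel genes in the table in 40.2% and 15.2%. GC content was 62.0% for Kcnj10, 44.4% for Kcnk1 and 74.4% for Kcnc1, against a median of 52.4% over all windows, with 17, 0 and 30 CpG dinucleotides against a median of 6. Such matches describe letters in a window and say nothing of binding.

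Kcnj16 encodes Kir5.1, a partner of Kir4.1, and did not follow Kcnj10. It had 33.1 and 0.222 CPM in hypoxia and 0.0635 and 0 CPM in normoxia, with no count in the embryo, so its level rests on hypoxia replicate 1. Kcnj14 (Kir2.4) showed the same split, with 28.7 CPM in hypoxia replicate 1 and no count in any other library. Kcnj11 encodes Kir6.2, the pore of ATP-sensitive channels, and was counted mainly in the embryo. It had 0 CPM in both hypoxic and 0 and 0.0326 CPM in both normoxic libraries, against 3.26 and 1.98 CPM at E13 and 13.7 and 11.6 CPM at E15. Kcnj11 was at least 73.4-fold lower in hypoxic P12 than in the embryo (edgeR quasi-likelihood adjusted p = 0.0163) and 483-fold lower in normoxic P12, from 1 count (95% counting interval 86.5 to 19100, edgeR adjusted p = 0.0293). Both calls were lost without any 1 embryonic library (edgeR adjusted p of 0.0762 to 0.0841 in hypoxic and 0.127 to 0.143 in normoxic P12), and the normoxic one also without normoxia replicate 1 (0.0566). Its regulatory partner gene Abcc8 (SUR1) had 0 CPM in both hypoxic libraries and 0 and 10.8 CPM in the normoxic, against 9.59 to 71.2 CPM in the embryo, and was not called in the 2 comparisons with hypoxic libraries or in normoxic P12 against the embryo. Kcnj8, the pore gene of the mural cell form, was found at 0.498 CPM in E15 replicate 2 and had no count elsewhere, Abcc9, its partner, had no count at all, and the choroid plexus gene Kcnj13 had 0.125 CPM in E13 replicate 2 and no count elsewhere.

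The G-protein-gated rectifier genes Kcnj3, Kcnj5, Kcnj6 and Kcnj9 had no count in either hypoxic library. Kcnj6 had none in normoxia either, against 0.321 to 0.82 CPM in the embryo, and was at least 4.67-fold lower in hypoxic P12 (edgeR quasi-likelihood adjusted p = 0.0383) and at least 5.11-fold lower in normoxic P12 (edgeR adjusted p = 0.0472). Kcnj9 was at least 6.27-fold lower in hypoxic P12 than in the embryo (edgeR adjusted p = 0.0235), from an embryonic mean of 0.667 CPM. None of these calls held without any 1 embryonic library (edgeR adjusted p of 0.178 to 0.244 for Kcnj6 and 0.112 to 0.131 for Kcnj9) or without either P12 replicate of the group compared (0.092 to 0.125 for Kcnj6 and 0.0543 to 0.0615 for Kcnj9). Kcnj3 had 18.0 and 0.0652 CPM in normoxia, against 14.7 and 14.5 CPM at E13 and 2.25 and 6.14 CPM at E15. Kcnj5 was counted in E13 libraries, at 10.4 and 12 CPM, and in E15 replicate 2, at 0.193 CPM, and in no P12 library. Kcnj9 and Kcnj10 lie in opposite directions on chromosome 1 of GRCm38, Kcnj9 at 172320501 to 172329318 on the minus strand and Kcnj10 at 172341210 to 172374085 on the plus strand, and these neighbours were called in opposite directions in hypoxic P12 against the embryo.

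Among the K2P leak genes, Kcnk1 encodes TWIK-1, a weak leak channel of many glia and neurons. It had 241 and 213 CPM in hypoxic P12 and 33.3 and 85.5 CPM in normoxic P12 libraries, against 0.912 and 0.838 CPM at E13 and 0.493 and 1.30 CPM at E15. Every hypoxic library was above every normoxic one, and every normoxic one above the embryo. Kcnk1 rose by 8.00 on the log2 scale in hypoxic P12 against the embryo (SE 0.64, edgeR quasi-likelihood adjusted p = 0.00096) and by 6.06 in normoxic P12 (SE 0.60, edgeR quasi-likelihood adjusted p = 0.00218), and both calls held in all 17 alternatives. Hypoxia against normoxia gave a log2 fold change of 1.93 for Kcnk1 (SE 0.67, edgeR adjusted p = 0.223). Of the Kcnk1 exon length 8.0% is shared with Gm45875 on the other strand, and the strand setting of the counting is not stated.

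Kcnk10 and Kcnk2 encode TREK-2 and TREK-1, leak channels opened by stretch, heat and lipids, and differed from Kcnk1 in being present in the embryo. Kcnk10 had 26.8 and 25.8 CPM at E13, 63.5 and 80.2 CPM at E15, 160 and 117 CPM in hypoxic P12 and 28.7 and 46.0 CPM in normoxic P12. It was highest in the hypoxic libraries, while the normoxic ones lay between the 2 embryonic stages. Kcnk10 rose by 1.67 on the log2 scale in hypoxic P12 against the embryo (SE 0.35, edgeR quasi-likelihood adjusted p = 0.0223), a call that was lost with any 1 embryonic library left out (edgeR adjusted p of 0.113 to 0.131). Hypoxia against normoxia gave 1.89 (SE 0.44, edgeR adjusted p = 0.0983), and E15 against E13 gave 1.45 (SE 0.43, edgeR adjusted p = 1.0). The fit of the embryonic libraries alone called Kcnk10 higher at E15 (edgeR adjusted p = 0.0475), as did DESeq2 and limma-voom.

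Kcnk2 had 10.7 and 20.7 CPM at E13, 17.8 and 18.1 CPM at E15, 59.5 and 6.88 CPM in hypoxic P12 and 92.8 and 82.2 CPM in normoxic P12. The normoxic libraries were above all others, and the hypoxic ones lay on either side of the embryonic range. Normoxic P12 against the embryo gave a log2 fold change of 2.38 for Kcnk2 (SE 0.82, edgeR adjusted p = 0.0978), and 12.2% of its exon length is shared with A430027H14Rik on the other strand. Kcnk3 encodes TASK-1, an acid-sensitive leak channel, and was found at 10.6 and 9.19 CPM in normoxic P12. It had 0.0336 and 0.074 CPM in hypoxic P12, 0.34 and 0.143 CPM at E13 and no count at E15. Kcnk3 was called higher in normoxic P12 against the embryo (edgeR quasi-likelihood adjusted p = 0.00697), but not without any 1 embryonic library (edgeR adjusted p of 0.0505 to 0.0795), and its fitted fold change is not given because both E15 libraries were at 0. Hypoxia was 187-fold below normoxia for Kcnk3 from 3 counts (95% counting interval 63.9 to 912, edgeR adjusted p = 0.059). The microglial gene Kcnk13 had 0.572 CPM in E13 replicate 1 and 0.0318 CPM in normoxia replicate 1 and no count elsewhere, and the remaining K2P genes, Kcnk5, Kcnk6, Kcnk7, Kcnk9 and Kcnk12, stayed at or below 1.82 CPM in every library. Of these Kcnk12 was called, at least 5.82-fold lower in hypoxic P12 than in the embryo (edgeR adjusted p = 0.0437), and was not called without any 1 embryonic or hypoxic library (edgeR adjusted p of 0.105 to 0.18).

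Of the voltage-gated pore genes, Kcnc1 was the one called higher in both P12 groups. It encodes Kv3.1, a rapidly gating channel best known from fast-spiking neurons. Kcnc1 had 78.6 and 51.0 CPM in hypoxic P12 and 64.9 and 38.0 CPM in normoxic P12 libraries, against 2.47 and 3.10 CPM at E13 and 4.44 and 5.29 CPM at E15. The 2 P12 groups overlapped each other and lay above the embryo. Kcnc1 rose by 4.14 on the log2 scale in hypoxic P12 against the embryo (SE 0.49, edgeR quasi-likelihood adjusted p = 0.00338), in all 17 alternatives, and by 3.81 in normoxic P12 (SE 0.49, edgeR adjusted p = 0.00567), where the call was lost with any 1 embryonic library left out (edgeR adjusted p of 0.0606 to 0.0655). Its relative Kcnc2 had 0.0336 and 0.148 CPM in hypoxia and 0.0635 and 12.2 CPM in normoxia, against 2.47 and 0.98 CPM at E13 and 9.48 and 10.8 CPM at E15.

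Kcnd2, the gene of Kv4.2, and Kcna4, that of Kv1.4, were highest in the normoxic P12 libraries. Kcnd2, whose P12 values are given above, had 3.99 and 2.28 CPM at E13 and 4.61 and 3.33 CPM at E15, and rose by 4.03 on the log2 scale in normoxic P12 against the embryo (SE 0.74, edgeR quasi-likelihood adjusted p = 0.0187). Kcna4 had no count at E13 and 0.775 and 0.804 CPM at E15, and was called higher in normoxic P12 (edgeR quasi-likelihood adjusted p = 0.0116) with a mean of 20.0 CPM against 0.395 CPM in the embryo. Both of these calls were lost with any 1 embryonic library left out (edgeR adjusted p of 0.113 to 0.133 for Kcnd2 and 0.0664 to 0.12 for Kcna4), and that of Kcnd2 also without normoxia replicate 1 (0.084).

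Kcna3 and Kcnb2 were low in both P12 groups. Kcna3, a Shaker-type gene, had 0.0336 and 0.222 CPM in hypoxic P12 and 0.413 and 3.10 CPM in normoxic P12, against 21.2 and 15.2 CPM at E13 and 22.1 and 17.4 CPM at E15. It fell by 7.19 on the log2 scale in hypoxic P12 against the embryo (SE 1.56, edgeR quasi-likelihood adjusted p = 0.024), and normoxic P12 gave -3.43 (SE 1.26, edgeR adjusted p = 0.117). Kcnb2 had 0 and 0.185 CPM in hypoxic P12 and 0.318 and 0.0652 CPM in normoxic P12, against 12 to 24.7 CPM in the embryo. Kcnb2 fell by 7.78 in hypoxic P12 (SE 1.90, edgeR quasi-likelihood adjusted p = 0.0326), and normoxic P12 gave -6.73 (SE 1.80, edgeR adjusted p = 0.0524). Both P12 groups were below every embryonic library for both genes. The calls of Kcna3 and Kcnb2 in hypoxic P12 were lost with any 1 embryonic library left out (edgeR adjusted p of 0.0865 to 0.0913 and 0.104 to 0.117). Kcna2 had 5.45 and 0.814 CPM in hypoxia and 1.43 and 0.358 CPM in normoxia, against 4.04 and 1.25 CPM at E13 and 8.30 and 5.34 CPM at E15. The P12 groups overlapped each other and the embryo, while E15 lay above E13 and was not called. Kcna2, Kcna3 and Kcna10 lie on chromosome 3 between 107036169 and 107195721 of GRCm38, and Kcna10 did not exceed 0.0358 CPM in any library. Whether position on the chromosome goes with level was not tested.

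Kcng1 and Kcnf1 encode silent subunits, which form channels only together with Kcnb subunits. Kcng1 (Kv6.1) had no count in hypoxic P12 and 0.159 and 2.18 CPM in normoxic P12, against 40.9 and 28.6 CPM at E13 and 20.7 and 23.7 CPM at E15. It was at least 268-fold lower in hypoxic P12 than in the embryo (edgeR quasi-likelihood adjusted p = 0.0158), and its log2 fold change in normoxic P12 was -4.57 (SE 1.39, edgeR adjusted p = 0.0864). Kcnf1 (Kv5.1) had no count in hypoxic P12 and 0.191 and 6.71 CPM in normoxic P12, against 3.53 to 4.68 CPM in the embryo, and was at least 37.8-fold lower in hypoxic P12 (edgeR quasi-likelihood adjusted p = 0.0421). With hypoxia replicate 1 or replicate 2 left out, Kcnf1 was not called (edgeR adjusted p = 0.0864 and 0.0861), nor was either gene with any 1 embryonic library left out (edgeR adjusted p of 0.0661 to 0.0697 for Kcng1 and 0.131 to 0.134 for Kcnf1). Kcns1, Kcns2 and Kcns3 did not exceed 0.273 CPM in any library, and Kcnv1 had 0.222 and 13.6 CPM in normoxic P12 and no count elsewhere.

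All 8 genes of the ether-a-go-go family (Kcnh) passed the filter, and each was under 1 CPM in both hypoxic libraries. Kcnh5 (EAG2) had 0.908 and 0.888 CPM in hypoxic P12 and 0.254 and 0.0652 CPM in normoxic P12, against 26.4 and 21.6 CPM at E13 and 21.4 and 16.5 CPM at E15. It fell by 4.57 on the log2 scale in hypoxic P12 (SE 0.91, edgeR quasi-likelihood adjusted p = 0.0184) and fell by 7.04 in normoxic P12 (SE 1.04, edgeR quasi-likelihood adjusted p = 0.00932), both against the embryo. Kcnh8 had 0 and 0.037 CPM in hypoxic P12 and no count in normoxic P12, against 3.28 to 5.15 CPM in the embryo. Kcnh8 was 226-fold lower in hypoxic P12 from 1 count (95% counting interval 40.4 to 8930, edgeR adjusted p = 0.028) and at least 41.2-fold lower in normoxic P12 (edgeR adjusted p = 0.0251). Without any 1 embryonic library neither gene was called, with an edgeR adjusted p of 0.0588 to 0.0951 for Kcnh5 and 0.118 to 0.126 for Kcnh8 over both comparisons. Without normoxia replicate 1 Kcnh8 was not called in normoxic P12 (edgeR adjusted p = 0.0647).

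Kcnh4 stood out for its course in the embryo, with 3.49 and 8.07 CPM at E13, no count at E15, 0 and 0.037 CPM in hypoxic P12 and 12.2 and 6.09 CPM in normoxic P12. It was called higher in normoxic P12 against the embryonic mean (edgeR quasi-likelihood adjusted p = 0.0286), although the normoxic and E13 libraries overlap, and the fitted fold change is not given because E15 was at 0. The call was lost without any 1 embryonic library (edgeR adjusted p of 0.128 to 0.169) and without normoxia replicate 1 (0.0894). In E15 against E13 it was at least 115-fold lower (edgeR adjusted p = 0.748), and DESeq2 and limma-voom called it lower. Kcnh2, the ERG gene, was at 0 and 0.111 CPM in hypoxic P12 and 7.84 and 5.51 CPM in normoxic P12, against 2.43 to 5.27 CPM in the embryo, and was 73.4-fold lower in hypoxic P12 than in the embryo from 3 counts (95% counting interval 25.0 to 357, edgeR adjusted p = 0.0395). Kcnh2 was not called without any 1 embryonic library (edgeR adjusted p of 0.124 to 0.14) or without normoxia replicate 1 (0.0547). Kcnh1 (EAG1) had 0.0336 and 0 CPM in hypoxia and 0.508 and 48.7 CPM in normoxia, against 1.43 to 2.52 CPM in the embryo.

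Kcnq3 and Kcnq5 encode subunits of the M-current, whose channels open near rest and limit firing, and both were present in every embryonic library. Kcnq3 had no count in hypoxic P12 and 7.34 and 0.163 CPM in normoxic P12, against 5.17 to 11.9 CPM in the embryo, and was at least 79.4-fold lower in hypoxic P12 (edgeR quasi-likelihood adjusted p = 0.0386). Kcnq5 had 0 and 106 CPM in hypoxic P12 and 0.254 and 0.0652 CPM in normoxic P12, against 1.22 to 3.08 CPM in the embryo. The call of Kcnq3 was lost without any 1 embryonic or hypoxic library (edgeR adjusted p of 0.0839 to 0.126).

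The small-conductance calcium-activated genes Kcnn1, Kcnn2 and Kcnn3 encode SK channels, which produce part of the afterhyperpolarisation that follows action potentials. Kcnn1 had 0 and 0.148 CPM in hypoxic P12 and 15.7 and 11.2 CPM in normoxic P12, against 50.5 and 47.7 CPM at E13 and 27.3 and 30.3 CPM at E15. Hypoxic libraries lay below normoxic, and normoxic below embryonic, without overlap. Kcnn1 fell by 8.96 on the log2 scale in hypoxic P12 against the embryo (SE 1.59, edgeR quasi-likelihood adjusted p = 0.0129), and was not called without any 1 embryonic library (edgeR adjusted p of 0.0588 to 0.0622). Hypoxia against normoxia gave -7.47 (SE 1.53, edgeR adjusted p = 0.07). Kcnn3 had 1.41 and 0.111 CPM in hypoxic P12 and 20.3 and 17.5 CPM in normoxic P12, against 10.1 and 5.06 CPM at E13 and 32.8 and 30.8 CPM at E15, and Kcnn2 had 61.5 and 3.81 CPM in hypoxic P12 and 29.1 and 72.7 CPM in normoxic P12, against 37.0 to 73.6 CPM in the embryo. Kcnn3 missed the threshold in hypoxic P12 against the embryo (log2 fold change -4.34, SE 1.25, edgeR adjusted p = 0.0506).

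The large-conductance calcium-activated gene Kcnma1 (BK) had 1.65 and 0.074 CPM in hypoxia and 0.603 and 14.0 CPM in normoxia, against 0.0643 to 1.56 CPM in the embryo. Its neuronal auxiliary gene Kcnmb4 had 0 and 0.074 CPM in hypoxia and 1.91 and 3.98 CPM in normoxia, against 3.67 to 4.95 CPM in the embryo. Kcnmb4 was 127-fold lower in hypoxic P12 than in the embryo from 2 counts (95% counting interval 35.0 to 1050, edgeR adjusted p = 0.0273), but not called without any 1 embryonic library (edgeR adjusted p of 0.105 to 0.111). The annotation places Kcnmb4os1 and Kcnmb4os2 on the other strand over 10.7% and 20.8% of the Kcnmb4 exon length. The sodium-activated gene Kcnt1 had 0 and 0.111 CPM in hypoxia and 1.27 and 19.4 CPM in normoxia, against 1.75 CPM in E13 replicate 1 and no count in the other embryonic libraries. Kcnu1, known as the pH-sensitive channel of sperm, had 0.863 to 4.24 CPM in the embryo and no count at P12. It was at least 18.6-fold lower in hypoxic P12 (edgeR adjusted p = 0.0389) and at least 20.4-fold lower in normoxic P12 (edgeR adjusted p = 0.0483). Neither call of Kcnu1 held without any 1 embryonic library or without either replicate of the P12 group compared (edgeR adjusted p of 0.0687 to 0.203).

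Auxiliary subunits of the Kcnd channels, the Kv channel-interacting proteins, differed from one another. Kcnip3, which also acts as the calcium-sensitive transcriptional repressor DREAM, had 11.1 and 12.9 CPM at E13, 41.3 and 44.0 CPM at E15, 39.3 and 160 CPM in hypoxic P12 and 19.4 and 55.4 CPM in normoxic P12. It was above 10 CPM in every library. E15 against E13 gave a log2 fold change of 1.83 in the embryonic libraries alone (edgeR adjusted p = 0.0393), and limma-voom called it higher too, but the fit of all 8 libraries did not (edgeR adjusted p = 1.0). Hypoxic P12 against the embryo gave 2.14 (SE 0.68, edgeR adjusted p = 0.0657). Kcnip4 had 1.36 and 1.27 CPM at E13 and 1.04 and 1.43 CPM at E15. Against the embryo it rose by 4.35 on the log2 scale in normoxic P12 (SE 0.69, edgeR quasi-likelihood adjusted p = 0.0118) and was 36.2-fold lower in hypoxic P12 from 2 counts (95% counting interval 9.95 to 301, edgeR adjusted p = 0.0155), so the P12 groups lay on opposite sides of the embryo. Both calls were lost without any 1 embryonic library (edgeR adjusted p of 0.104 to 0.114 and 0.075 to 0.0804). Of the Kcnip4 exon length 4.6% is shared with 5730480H06Rik and 2.7% with Gm20700 on the other strand.

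Kcnip1 had 0.0673 and 0.259 CPM in hypoxic P12 and 0.349 and 0.0978 CPM in normoxic P12, against 5.62 to 9 CPM in the embryo. It fell by 5.44 on the log2 scale in hypoxic P12 (SE 1.22, edgeR quasi-likelihood adjusted p = 0.0262) and fell by 4.99 in normoxic P12 (SE 1.19, edgeR adjusted p = 0.0395), neither call holding without any 1 embryonic library (edgeR adjusted p of 0.101 to 0.17), nor the normoxic one without either normoxic library (0.076 and 0.086). Kcnip2 had 0.0673 and 0.148 CPM in hypoxia and 8.10 and 103 CPM in normoxia, against 0 to 0.68 CPM in the embryo. Kcnab1, an auxiliary subunit of the Kcna channels, had no count in hypoxic P12 and 78.8 and 36.7 CPM in normoxic P12, against 0 to 1.40 CPM in the embryo. Kcnab1 rose by 7.80 in normoxic P12 against the embryo (SE 1.48, edgeR quasi-likelihood adjusted p = 0.0291), a call lost without any 1 embryonic or normoxic library (edgeR adjusted p of 0.0502 to 0.178), and was at least 549-fold below normoxia in hypoxia (edgeR adjusted p = 0.0804). Kcnab2 had 0.0673 and 23.6 CPM in hypoxia and 4.22 and 50.7 CPM in normoxia, against 2.58 to 5.29 CPM in the embryo. No Kcne gene exceeded 0.374 CPM in any library, a value reached by Kcne2.

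Presence in 1 library and near absence in the other was common at P12. Of the genes with at least 10 CPM in 1 library of a group, 8 of 15 in hypoxia had under 1 CPM in the other library, or 53.3%, and 10 of 29 in normoxia, or 34.5%. Over all gene rows, tested or not, the same shares were 29.3% in hypoxia and 15% in normoxia. In the embryo there was no such potassium channel gene (0 of 15 at E13 and 0 of 16 at E15). Over all gene rows with at least 10 CPM in 1 library, the shares there were 0.0413% at E13 and 0.0105% at E15. Among the hypoxic genes were Kcna6, Kcnj14 and Kcnj16, high in replicate 1, and Kcna1, Kcnab2, Kcnd1 and Kcnq5, high in replicate 2. In normoxia Kcnj3 was high in replicate 1, while Kcna1, Kcna5, Kcnc2, Kcnd3, Kcnh1, Kcnh7, Kcnma1 and Kcnv1 were among those high in replicate 2. For these genes a group mean describes neither library.

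**Figure D4:**
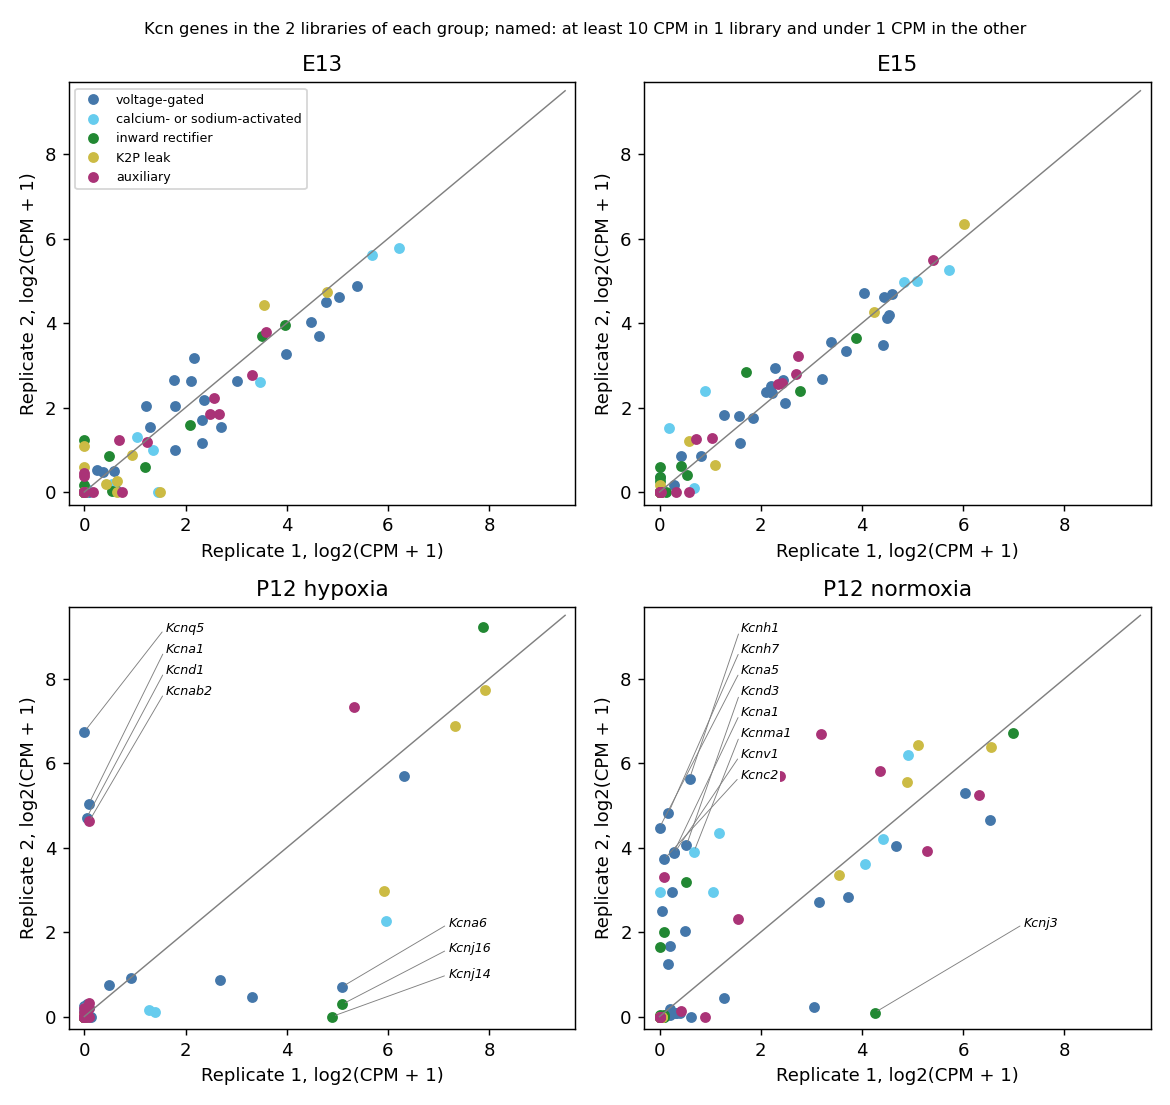
Level of each of 88 potassium channel genes in replicate 2 against replicate 1 of the same group, as log2(CPM + 1), for E13, E15, P12 hypoxia and P12 normoxia, coloured by role class and with the line of equal levels. In the embryonic panels the points follow the line, and in the P12 panels the named genes lie along the axes, 7 in hypoxia and 9 in normoxia, having at least 10 CPM in 1 library and under 1 CPM in the other.

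Genes that act beside the potassium channels were counted for comparison, 29 in all, of which 25 were tested. In hypoxia against normoxia 1 was higher and none lower. It was Slc12a2, the sodium-potassium-chloride uptake transporter NKCC1, with 466 and 273 CPM in hypoxia against 50.8 and 59.3 CPM in normoxia, a rise of 2.75 on the log2 scale (SE 0.39, edgeR quasi-likelihood adjusted p = 0.03). The Slc12a2 call was lost without any 1 embryonic library (edgeR adjusted p of 0.151 to 0.159), without normoxia replicate 2 (0.0583), in the edgeR fit of the P12 libraries alone (0.341), with the replicate block (0.0979) and in limma-voom (0.386), and both DESeq2 fits kept it. In normoxic P12 against the embryo 6 were higher and none lower, and in hypoxic P12 6 were higher and 2 lower. Among those higher in both were Atp1b1 and Atp1b2, the genes of beta subunits of the sodium-potassium pump, which returns potassium to the cell. Adam22, a partner of Kcna channels at axons, had 989 and 1390 CPM in hypoxic P12 and 975 and 1670 CPM in normoxic P12, against 37.0 to 62.0 CPM in the embryo.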

How the data were processed

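RNA was sequenced from tdTomato-positive mouse brain cells, 2 libraries per group. The authors deposited unnormalized counts of each gene in a separate file for every library. Tools named by the submitters' processing notes are cutadapt, STAR and Subread, and the build is GRCm38. Settings, annotation release and strand handling are not given in the sources used here. Of 55487 rows per file 1980 named no gene (0.205% to 0.266% of counts) and were left out. All 92 members matched GENCODE M21, the source of exon lengths and coordinates.

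Counts were fitted with edgeR 4.0.16 in R 4.3.3 (TMM scaling, filterByExpr with minimum count 10 and minimum total 15, quasi-likelihood test of 4 group means over all 8 libraries, 4 residual degrees of freedom). Tests were two-sided and Benjamini-Hochberg adjusted over all 19936 genes tested, at 0.05. The SE comes from the F statistic. Bounds for absent genes take 3 counts per library, intervals are at 95%, and both cover counting error only, since reads carry no molecular identifiers. The pipeline was tested on simulated data. Replicate numbers are those of the sample titles, and some deposited P12 count files carry other numbers.

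The members, gene lists and naming rule were chosen with earlier results of these data known. Named were called genes (up to 8 per direction, the largest changes without overlap and with at least 5 CPM), the highest gene of each subfamily, and 23 genes by role. Genes of 1-library patterns, unadjusted results and other called genes were named after their values were seen. Alternatives were DESeq2 1.42.0, limma-voom with sample quality weights (limma 3.58.1, called limma-voom here), other scalings and filters, a replicate block, only the compared libraries, and each library left out. DESeq2 on only the compared libraries was added after seeing the data. Sequences are from RefSeq. Some genes are counted in the totals but not reported here by name or drawn.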

Additional observations from a re-analysis of the deposited data

How the results depend on the processing

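Over the called and named genes, 608 alternative values were computed. Of these 403 passed the threshold, 205 missed it and 0 turned the direction. Counts are of potassium channel genes called higher and lower, and the cause of each change was not tested. Shares in brackets are those of all tested genes in the same direction. DESeq2 gave 6 and 24 for hypoxia against normoxia (6.87% and 13.1%) and 16 and 14 for normoxic P12 against the embryo (20.7% and 15.7%). It gave 8 and 30 for hypoxic P12 (22.4% and 22.7%), and 4 and 3 for E15 against E13 (0.662% and 1.21%). DESeq2 on only the compared libraries, added after seeing the data, gave 2 and 21 for hypoxia against normoxia (1.53% and 7.82%). For normoxic P12 it gave 18 and 16 (26.8% and 21.3%) and for hypoxic P12 7 and 30 (24.4% and 25.5%). For E15 against E13 it gave 8 and 5 (5.18% and 6.12%). limma-voom gave 0 lower for hypoxia against normoxia (0%) and 1 lower for hypoxic P12 (2.08%). It gave 5 and 5 for E15 against E13 (1.82% and 2.87%). edgeR on only the compared libraries gave 0 lower for hypoxia against normoxia (0%) and 12 lower for normoxic P12 (15.1%). It gave 2 higher for E15 against E13 (0.493%). Without a low-count filter 1 gene was lower in hypoxia against normoxia (0.957%), 3 in normoxic P12 (1.87%) and 12 in hypoxic P12 (5.62%). Relative log expression scaling left 1 lower in hypoxia against normoxia (2.12%). The replicate block left 0 lower in hypoxia against normoxia (0.00502%), 1 lower in normoxic P12 (1.32%) and 6 lower in hypoxic P12 (5.57%). Equal replicate numbers name no pair, since deviations from the group mean correlated at -0.044 to 0.014 over 6 pairs of groups.

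Leaving out 1 library gave 0 to 2 higher and 0 to 9 lower in hypoxia against normoxia, 1 to 10 and 0 to 10 in normoxic P12, 3 to 8 and 0 to 26 in hypoxic P12, and 0 and 0 in E15 against E13. Where this left a group with 1 library, that library was assumed to vary like the other groups. Upper-quartile scaling moved the median log2 fold change of all genes to -0.75 in hypoxic P12 (main value -0.43) and to -0.24 in normoxic P12 (main value -0.04), and relative log expression scaling moved it to -0.22 in hypoxic P12. Kcnk10 stayed called higher in hypoxic P12 under both scalings (edgeR adjusted p = 0.0449 and 0.0126). A planned count of selectivity filter motifs in proteins was not run. With 2 libraries per group, and P12 replicates that differ by presence and absence, single P12 levels are less certain than embryonic ones.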
